A study of Mus musculus with 6 samples.

Results

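The genes described here encode the proteins of the cytosolic ribosome, as measured in naive CD8 T cells of LAIR-1-deficient and wild type mice. LAIR-1 is a collagen-binding receptor that inhibits leukocytes. The LAIR-1-deficient group was Lair1-/- and the wild type group Lair1+/+, with 3 mice in each. From each spleen 100000 naive cells, CD3+, CD8+ and CD44- among other surface proteins, were sorted, and their total RNA gave 1 library per mouse. Age, strain, sex and the part of Lair1 that the allele removes are not stated in the sources used here, and no treatment is named for either group. Members were chosen by symbol: Rpl or Rps followed by a digit, or Rplp0, Rplp1, Rplp2 or Rpsa, leaving out S6 kinases and symbols with -ps. This gave 85 of the 14515 gene rows. Of these, 77 were core ribosomal proteins, 46 of the large and 31 of the small subunit. Another 7 were paralogues of a core gene (Rpl36al, Rpl7l1, Rps4y2, Rps27l, Rpl39l, Rpl22l1 and Rpl10l), and 1, Rps19bp1, encodes a protein that binds Rps19 and is not a ribosomal protein. The label therefore did not hold for Rps19bp1, nor for Rps4y2, which is annotated as a transcribed processed pseudogene without a coding length. Further ribosomal proteins, such as Fau and Rack1, fall outside the symbol rule and are given among the related genes.

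Ribosomes read messenger RNA and join amino acids into protein. The small subunit holds the decoding centre, where codon and anticodon meet, and the large subunit holds the peptidyl transferase centre and the tunnel through which the new chain leaves. Cells make the core proteins in near equal amounts, and their mRNAs start with a run of pyrimidines, the 5' terminal oligopyrimidine tract, through which the kinase mTOR and the protein LARP1 control their translation. Naive T cells are small, resting cells with low protein synthesis, and they raise ribosome production after antigen recognition.

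The libraries summed to 7039990, 5519748 and 7296424 counts in LAIR-1-deficient mice 1 to 3, against 7974206, 9187017 and 8939919 in wild type mice 1 to 3, so each LAIR-1-deficient library was shallower than each wild type library. The targeted gene Lair1 averaged 0.201 ± 0.0784 CPM in LAIR-1-deficient cells and 5.21 ± 1.94 CPM in wild type cells (SD, n = 3 each), where CPM is the library-scaled count level after edgeR's TMM scaling. Markers of the sorted cells were present, with the 6 T cell genes summing to 5724 to 6155 CPM in LAIR-1-deficient and 5906 to 6184 CPM in wild type libraries. Among other cell types, the 4 B cell genes summed to 25.3 to 32.3 CPM in LAIR-1-deficient and 29.7 to 32.5 CPM in wild type libraries. The 4 macrophage and monocyte genes in the table, of 5 listed, summed to 137 to 158 CPM in LAIR-1-deficient and 143 to 173 CPM in wild type libraries. This sum was nearly all Ctss, at 136 to 157 CPM in LAIR-1-deficient and 141 to 172 CPM in wild type libraries, while Csf1r, Cd14 and Lyz2 reached at most 3.55, 0.673 and 0.137 CPM. Cd4, the 2 NK genes, the 2 platelet genes and the 1 erythroid gene in the table of 5 listed gave at most 5.30 CPM per list in any library. The samples are separate mice, and nothing in the labels ties a mouse of one genotype to a mouse of the other.

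The ribosomal protein genes took up 22.2% to 25.7% of all gene counts in each library, with no difference between genotypes beyond the spread between mice. Their share of gene counts was 25.7%, 23.0% and 23.8% in LAIR-1-deficient mice 1 to 3, against 24.7%, 23.9% and 22.2% in wild type mice 1 to 3. The groups overlapped, with the highest share in LAIR-1-deficient mouse 1 and the lowest in wild type mouse 3. The means were 24.2 ± 1.39% in LAIR-1-deficient and 23.6 ± 1.25% in wild type libraries (SD, n = 3 each), a difference of 0.600 percentage points with a two-sided exact permutation p of 0.7, where 0.1 is the smallest p that 3 mice against 3 allow. Without LAIR-1-deficient mouse 1 the difference was -0.165 points, and without wild type mouse 3 it was -0.0814 points. In sorted bulk cells, fewer cells of a type and less RNA per cell cannot be told apart.

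Summed counts of the large and small subunit genes stood in a similar ratio in both genotypes. The sums cover 46 large and 31 small core genes besides the other members, so the ratio does not compare the subunits gene by gene. Members with Rpl symbols had 1.29, 1.29 and 1.31 counts per count of members with Rps symbols in LAIR-1-deficient mice 1 to 3, against 1.28, 1.30 and 1.30 in wild type mice 1 to 3. The groups overlapped, and the difference in the log2 ratio was 0.0017 with a two-sided exact permutation p of 1.

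Levels of single genes were set in an order by CPM per kilobase of coding sequence, since genes differ in length. Whether reads cover whole transcripts is not stated in the sources used here, so this scale is one reading of the levels. Coding length leaves out the untranslated parts of each mRNA, so genes with short coding sequences can stand high on this scale. By CPM without this division, Rps6, Rps3a1, Rpl5 and Rps7 were among the highest, with means of 9915, 8063, 7683 and 7483. Rpl39, Rps28 and Rps29 had means of 4609, 4921 and 3627 CPM. Over the 77 core genes the median was 5126 CPM per kilobase, with quartiles at 2665 and 8594. The large subunit had a median of 4175 and the small subunit a median of 6380 CPM per kilobase. Most core genes, 65 of 77, were at 1000 CPM per kilobase or more, a main band from Rpl3 at 1578 to Rpl41 at 40103, while 7 lay under 100.

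The highest level per kilobase was that of Rpl41, which encodes a peptide of 25 amino acids. Rpl41 was at 40175 ± 3845 CPM per kilobase in LAIR-1-deficient cells and 40031 ± 2270 in wild type cells (SD, n = 3 each). Its coding sequence is shown because its short length sets its place on this scale, as the gene had only 3134 ± 299.9 CPM in LAIR-1-deficient and 3122 ± 177 CPM in wild type cells without division by length. The gene lies at chr10:128548114-128549305 in GRCm38, on the minus strand, and its coding sequence in GENCODE vM21 has 78 bases.
Rpl41: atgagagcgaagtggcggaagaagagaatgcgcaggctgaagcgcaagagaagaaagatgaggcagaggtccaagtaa

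Other genes of high level on this scale were Rpl39, Rps28, Rplp1 and Rps29. Their means over the 6 libraries were 29545, 23434, 22854 and 21209 CPM per kilobase. Their coding sequences have 156, 210, 345 and 171 bases. Rpl39 is a protein of the large subunit at the exit tunnel, Rplp1 is part of the stalk that recruits elongation factors, and Rps28 and Rps29 belong to the small subunit. Neighbours in this order from Rpl39 to Rps29 had overlapping ranges over the 6 libraries. All 6 libraries of Rpl41 lay above all 6 of Rpl39, and all 6 of Rps29 above all 6 of Rps16, the next gene. Among the 84 genes with a coding length, 70 of 83 pairs of neighbours overlapped in this way. Such ranges pool the 6 libraries, so overlap alone does not settle the order within each library. Rpl39 lay above Rps28, and Rplp1 above Rps29, in each of the 6 libraries. In LAIR-1-deficient mouse 2 Rps28 lay above Rplp1, at 27015 against 22007 CPM per kilobase. In LAIR-1-deficient mouse 1 it lay below, at 25542 against 26151.

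**Figure D1:**
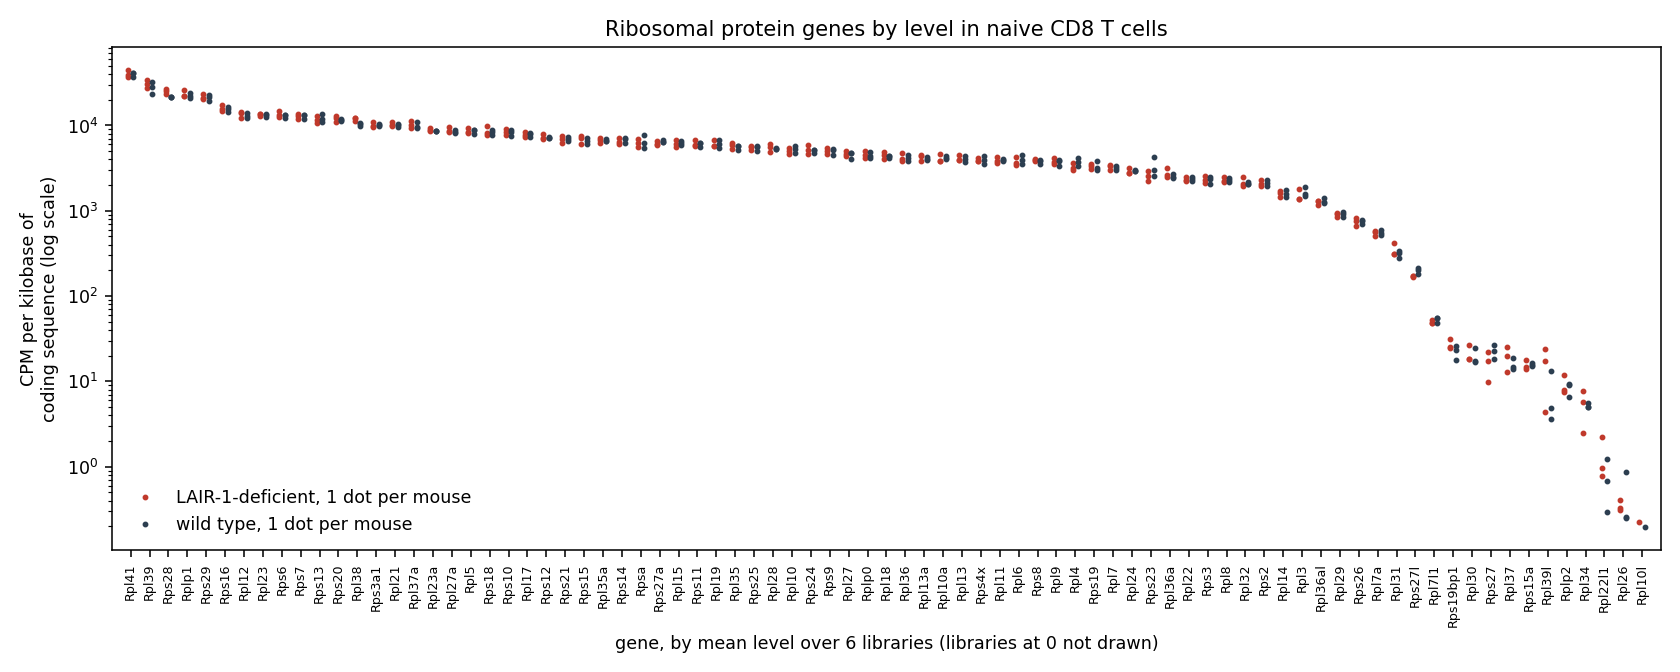
Level of 81 of the 84 ribosomal protein genes with a coding length, in CPM per kilobase of coding sequence on a log axis, with 1 dot per mouse in LAIR-1-deficient (red) and wild type (dark) cells. Genes run from Rpl41 at 40103 to Rpl10l at 0.0698, and the dots of the genotypes lie on top of each other along the main band while the lowest genes spread.

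A small set of core genes had nearly no counts in any library, although their proteins are parts of every ribosome. Rpl26, a large subunit protein next to the exit tunnel, had 1 count in each of LAIR-1-deficient mice 1 to 3, against 3, 1 and 1 counts in wild type mice 1 to 3. Rpl34 had 19, 5 and 15 counts in LAIR-1-deficient mice, against 14, 18 and 16 in wild type mice. Rplp2, the stalk partner of Rplp1, had 19, 23 and 19 counts in LAIR-1-deficient mice and 18, 30 and 28 in wild type mice. These genes were low in both genotypes. Rplp1 had 7592 to 9022 CPM in LAIR-1-deficient and 7211 to 8222 CPM in wild type libraries where Rplp2 had 2.60 to 4.09 CPM in LAIR-1-deficient and 2.27 to 3.28 CPM in wild type libraries. Rpl37, Rps27, Rps15a and Rpl30 were also under 10 CPM in every library.

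The counts of these genes depend on how reads that match several genes were assigned, which is not stated in the sources used here. Ribosomal protein genes have many processed pseudogenes, which are copies of their mRNA in the genome. For each core gene, every stretch of 50 coding bases was looked up in the transcripts of all other genes of GENCODE vM21. In 27 of the 77 core genes each stretch was also found in another gene. The 8 core genes under 100 CPM had a median of 83.8% shared stretches, with a range of 66.6 to 100%, against a median of 93.4% and a range of 0 to 100% in the 69 core genes at 100 CPM or more. Shared sequence was common among abundant genes too, as 25 of those 69 genes, Rps28 and Rps6 among them, were shared in full. The part of read assignment in the low counts was not tested.

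**Figure D2:**
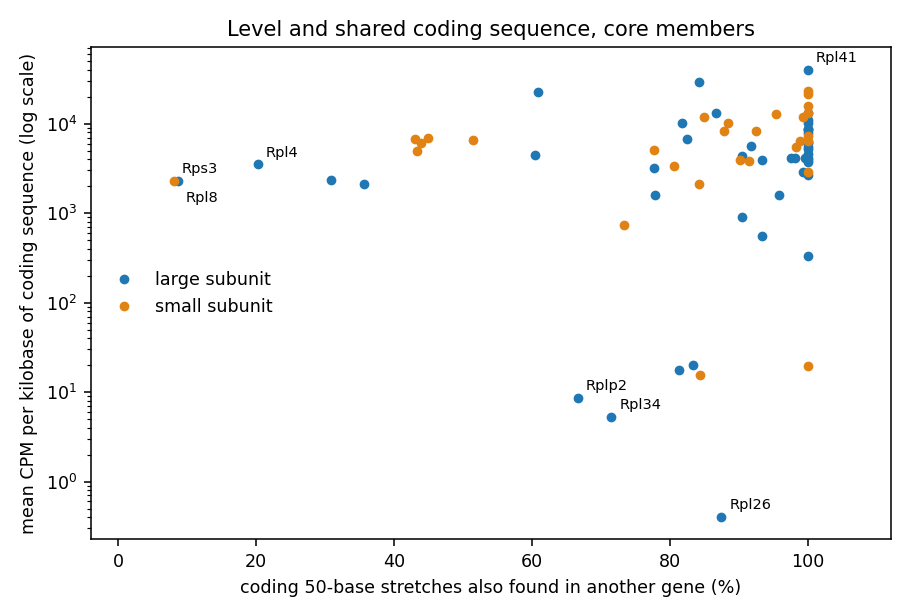
Mean CPM per kilobase of coding sequence over 6 libraries, on a log axis, against the percent of 50-base coding stretches that also occur in another gene, with 1 dot for each of 74 core genes of the large (blue) and small (orange) subunit. The genes under 100 CPM per kilobase, Rpl26 the lowest, lie at 66.6% or more shared sequence, where many genes of the main band lie too.

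Some of the sharing genes have rows of their own in the table. Wdr89 shares 66.6% of the coding stretches of Rplp2 and had 29, 38 and 33 counts in LAIR-1-deficient mice 1 to 3, against 29, 46 and 41 in wild type mice 1 to 3. Rpl37rt, a transcribed processed pseudogene that shares 81.2% of Rpl37, had 28, 30 and 22 counts in LAIR-1-deficient mice and 26, 44 and 40 in wild type mice, beside 41, 42 and 28 counts of Rpl37 itself in LAIR-1-deficient mice and 34, 50 and 37 in wild type mice. Rpl31-ps12, which shares 61.4% of Rpl31, had 41, 41 and 51 counts in LAIR-1-deficient mice and 52, 64 and 65 in wild type mice. Each of these rows had at most 65 counts in a library, few beside the counts of genes in the main band. BC004004, which shares 53.5% of Rpl21, had 75 to 115 counts in LAIR-1-deficient and 135 to 142 in wild type mice. For Rpl26, Rpl34, Rpl30 and Rps27, 5, 8, 11 and 5 other genes shared at least 10% of the stretches. None of these was matched to a row. A row named Rpl34-ps1, not matched to the annotation, had 0, 0 and 0 counts in LAIR-1-deficient mice 1 to 3 and 0, 0 and 1 in wild type mice 1 to 3. Another unmatched row, Rplp2-ps1, had 5, 5 and 4 counts in LAIR-1-deficient mice and 4, 7 and 4 in wild type mice. The rows at hand cannot show where reads of such genes were counted.

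Some promoter features, which the choice by symbol did not use, were more frequent among the members than among all promoters. RefSeq promoter sequences of GRCm38.p6, from 250 bases before to 50 bases from the annotated start, matched 64 of the 85 members and 11163 genes of the table. A run of at least 8 pyrimidines within 15 bases before to 25 bases after the start was present in 28 of the 64 members, or 43.8%, against 14.8% of all promoters. The longest such run had a median of 7 bases in members and 5 in all promoters. The word CCGGAAG, bound by ETS factors such as GABP, was found on either strand in 39.1% of members and 17.3% of all promoters. AAGATGG, a word of YY1, was in 14.1% of members and 7.18% of all promoters, and shares its first 3 bases with the end of the ETS word. GGGCGG, the GC box, was in 62.5% of members and 60.7% of all promoters, and TATAAA in 9.38% of members and 7.81% of all promoters. These are matches of letters, not sites of binding, and a start annotated elsewhere would change what the window holds.

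The windows from 40 bases before to 25 bases from the start are shown for 6 members, with the longest pyrimidine run in that search window in capitals. Rps28, Rpl38 and Rpl4 are the genes with the smallest p among those described below, Rps6 is an abundant gene, and Rps27 and Rplp2 are genes with few counts. On the minus strand lie Rps28 (chr17:33824538-33824602), Rps6 (chr4:86857343-86857407) and Rps27 (chr3:90213624-90213688). On the plus strand lie Rpl38 (chr11:114668540-114668604), Rpl4 (chr9:64173347-64173411) and Rplp2 (chr7:141447611-141447675).
Rps28: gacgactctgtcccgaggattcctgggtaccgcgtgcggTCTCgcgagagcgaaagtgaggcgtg
Rpl38: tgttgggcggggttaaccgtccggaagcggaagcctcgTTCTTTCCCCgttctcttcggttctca
Rpl4: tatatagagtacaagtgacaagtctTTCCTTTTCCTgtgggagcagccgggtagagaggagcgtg
Rps6: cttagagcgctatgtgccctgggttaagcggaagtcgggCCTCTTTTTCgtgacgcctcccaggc
Rps27: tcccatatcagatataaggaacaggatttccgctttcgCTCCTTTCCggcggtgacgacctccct
Rplp2: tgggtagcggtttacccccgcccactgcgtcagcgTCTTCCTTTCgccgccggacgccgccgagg
The genes with few counts, Rps27 and Rplp2, carried runs of 9 and 10 pyrimidines beside 10 in Rps6, while Rps28 had a run of only 4.

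Between the genotypes, no ribosomal protein gene passed the test. With edgeR's quasi-likelihood test and an adjusted p under 0.05, the LAIR-1-deficient mice had 0 higher and 0 lower among the 81 members tested, where the share called over all 9565 genes was 0% higher and 0.0105% lower. The smallest adjusted p of a member was 0.9999. At an unadjusted p under 0.05 there were 3 higher and 1 lower, against 1.81% and 1.44% of all genes. DESeq2 and limma-voom also called 0 members, with 3 higher and 0 lower in DESeq2 and 3 higher and 1 lower in limma-voom at an unadjusted p under 0.05. Rps4y2, Rpl22l1, Rpl26 and Rpl10l had too few counts to be tested.

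The size of any difference was tightly bounded for most members. The median log2 fold change was 0.02, with quartiles at -0.01 and 0.06 and a range of -0.45 to 1.02, against a median of 0.0006 over all genes tested. Fold changes had a 95% interval inside 1.25-fold both ways for 62 of 81 members, or 76.5%, against 19.5% of all genes. Members are more abundant than most genes, and among genes at 100 CPM or more the same held for 61 of 70 members (87.1%) and 809 of 1129 other genes (71.7%). The large subunit had 33 positive and 12 negative fold changes with a median of 0.03, and the small subunit 20 positive and 11 negative with a median of 0.01.

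Over all 81 tested members, 55 fold changes were positive and 26 negative, and this split rested on single libraries. It became 18 positive and 63 negative without LAIR-1-deficient mouse 1, 33 and 48 without wild type mouse 3, and 70 positive and 12 negative without LAIR-1-deficient mouse 2. When each library was scaled by the summed counts of the members themselves, so that each gene was read relative to the others, the split was 38 positive and 43 negative with a median of -0.01.

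**Figure D3:**
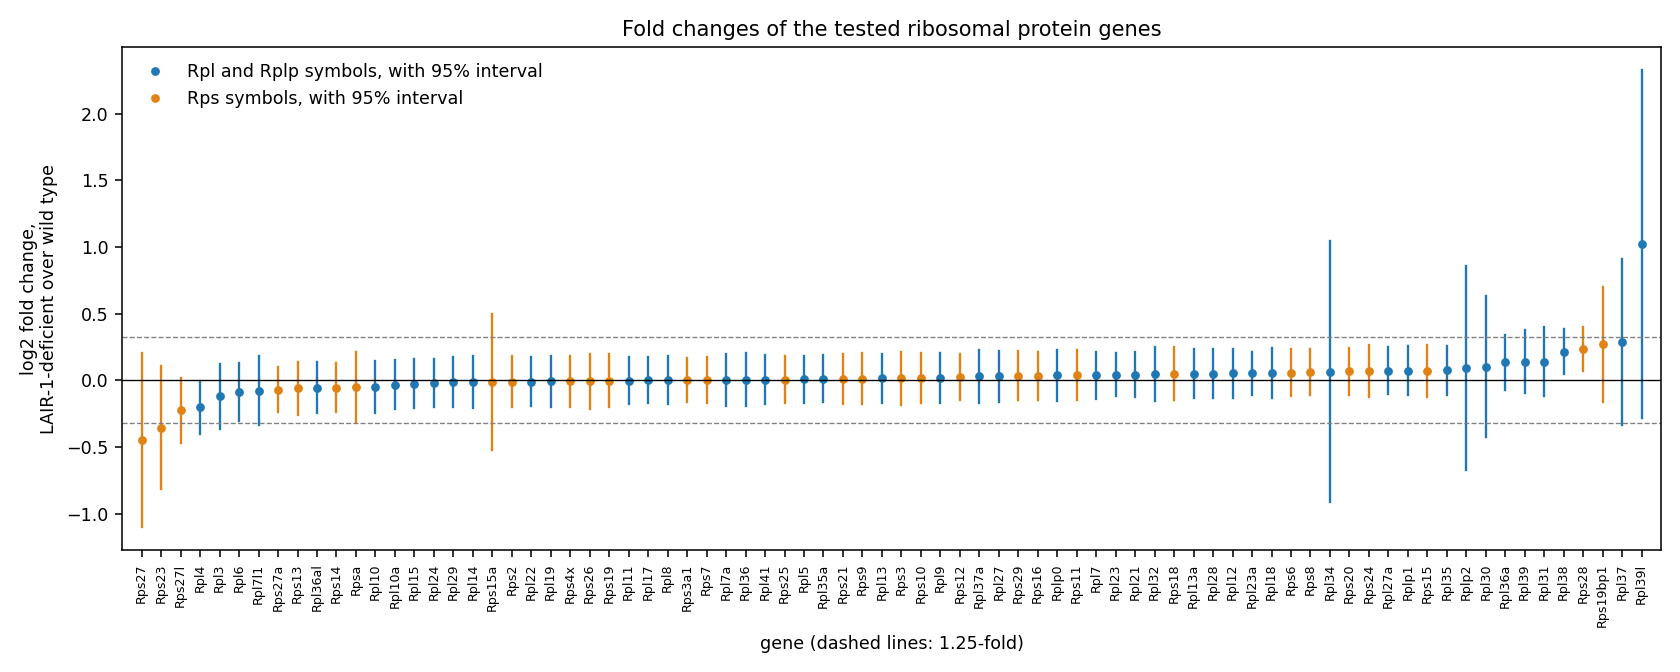
Log2 fold change, LAIR-1-deficient over wild type, of 78 of the 81 tested members, for Rpl and Rplp symbols (blue) and Rps symbols (orange). The 95% intervals were derived from edgeR's test. Most intervals lie between the dashed lines at 1.25-fold, as for 60 of the 78 genes drawn, and the wide ones belong to genes with few counts such as Rpl39l, Rpl34 and Rplp2.

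The ribosomal protein genes moved together from mouse to mouse, across the genotypes. For the 70 members at 100 CPM or more, the median deviation of log2 CPM from each gene's mean was 0.13, -0.10 and -0.01 in LAIR-1-deficient mice 1 to 3, against 0.07, 0.01 and -0.10 in wild type mice 1 to 3. In LAIR-1-deficient mouse 1, 67 of the 70 genes lay above their mean, against 5 in LAIR-1-deficient mouse 2 and 6 in wild type mouse 3. Of the 81 tested members, 54 were highest in LAIR-1-deficient mouse 1 and 17 in wild type mouse 1, while 35 were lowest in LAIR-1-deficient mouse 2 and 33 in wild type mouse 3. One principal component held 61.9% of the variance of the 70 genes and a second 22.2%. These values were not computed for other genes of similar level, so they do not show a trait particular to the members.

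Other measures differed between these libraries too. The sum of 8 immediate early genes, which cells induce rapidly when stimulated, was 7530 CPM in LAIR-1-deficient mouse 1, against 1825 and 2069 in LAIR-1-deficient mice 2 and 3. In wild type mouse 1 it was 5945 CPM, against 2057 and 2386 in wild type mice 2 and 3. The share of mitochondrially encoded genes was 15.6%, 19.2% and 19.2% in LAIR-1-deficient mice 1 to 3, against 17.2%, 19.3% and 21.1% in wild type mice 1 to 3, lowest in the library where the ribosomal protein share was highest. Both shares were taken of the same gene counts, so they are not independent. Without mouse 1 of both groups the split of fold changes was 33 positive and 48 negative. The part of these measures in the ribosomal protein levels was not tested.

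**Figure D4:**
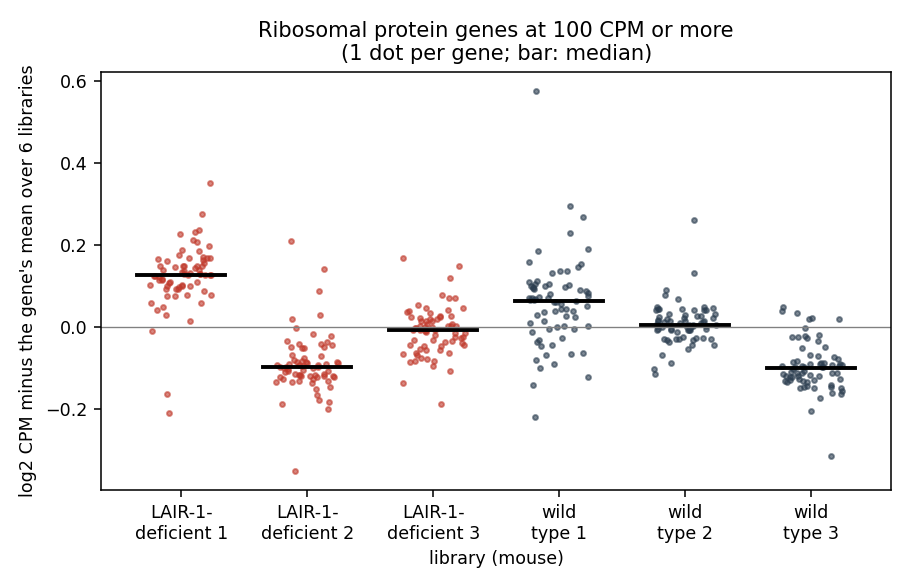
Deviation of log2 CPM from each gene's mean over 6 libraries for the 70 members at 100 CPM or more, with 1 dot per gene and a bar at the median, in LAIR-1-deficient mice 1 to 3 (red) and wild type mice 1 to 3 (dark). The medians are 0.13, -0.10 and -0.01 in LAIR-1-deficient and 0.07, 0.01 and -0.10 in wild type libraries, so libraries of one genotype differ as much as libraries of both.

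In the small subunit, and among all members, Rps28 had the smallest p. It had 5364, 5673 and 4928 CPM in LAIR-1-deficient mice 1 to 3, against 4506, 4529.6 and 4527 CPM in wild type mice 1 to 3. The groups did not overlap, and the wild type mice lay close together. The log2 fold change of Rps28 was 0.24 (SE 0.08, 95% interval 0.07 to 0.40), edgeR's unadjusted p was 0.00899 and the adjusted p 0.9999. Over the alternatives the log2 fold change lay between 0.19 and 0.29. Relative to the other members, Rps28 took 2.06%, 2.51% and 2.07% of their counts in LAIR-1-deficient mice, against 1.82%, 1.89% and 2.03% in wild type mice, again without overlap. All coding stretches of Rps28 occur in 7 pseudogenes, so its level is uncertain.

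In the large subunit Rpl38 had the smallest p. Rpl38, whose loss in mice alters skeletal patterning, had 2409, 2605 and 2614 CPM in LAIR-1-deficient mice 1 to 3, against 2253, 2198 and 2118 CPM in wild type mice 1 to 3. All 3 LAIR-1-deficient mice lay above all 3 wild type mice. Rpl38 had a log2 fold change of 0.22 (SE 0.08, 95% interval 0.05 to 0.38), an unadjusted p of 0.0156 and an adjusted p of 0.9999 in edgeR. The share of member counts overlapped, at 0.923%, 1.15% and 1.10% in LAIR-1-deficient mice against 0.908%, 0.917% and 0.951% in wild type mice. All of its coding stretches occur in pseudogenes, 3 in number.

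Rpl4, a protein that lines the exit tunnel, was the 1 member at an unadjusted p under 0.05 in the lower direction. It had 3803, 4016 and 4522 CPM in LAIR-1-deficient mice 1 to 3, against 4758, 5273 and 4169 CPM in wild type mice 1 to 3. The groups overlapped through LAIR-1-deficient mouse 3 and wild type mouse 3. Rpl4 had a log2 fold change of -0.20 (SE 0.10), an unadjusted p of 0.0482 and an adjusted p of 0.9999 in edgeR. Without wild type mouse 2 it was -0.12 with an unadjusted p of 0.305, and over the alternatives it lay between -0.29 and -0.12. Rpl4 shares 20.2% of its coding stretches with 1 pseudogene.

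Rps23, a protein of the decoding centre, had the lowest fold change among members at 100 CPM or more. It had 1103, 968 and 1251 CPM in LAIR-1-deficient mice 1 to 3, against 1841, 1304 and 1103 CPM in wild type mice 1 to 3. Wild type mouse 1 stood above the 5 other libraries, which overlapped. Its log2 fold change was -0.35 (SE 0.19, unadjusted p = 0.111 in edgeR), and over the alternatives it lay between -0.51 and -0.12, the smallest size being that without wild type mouse 1.

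**Figure D5:**
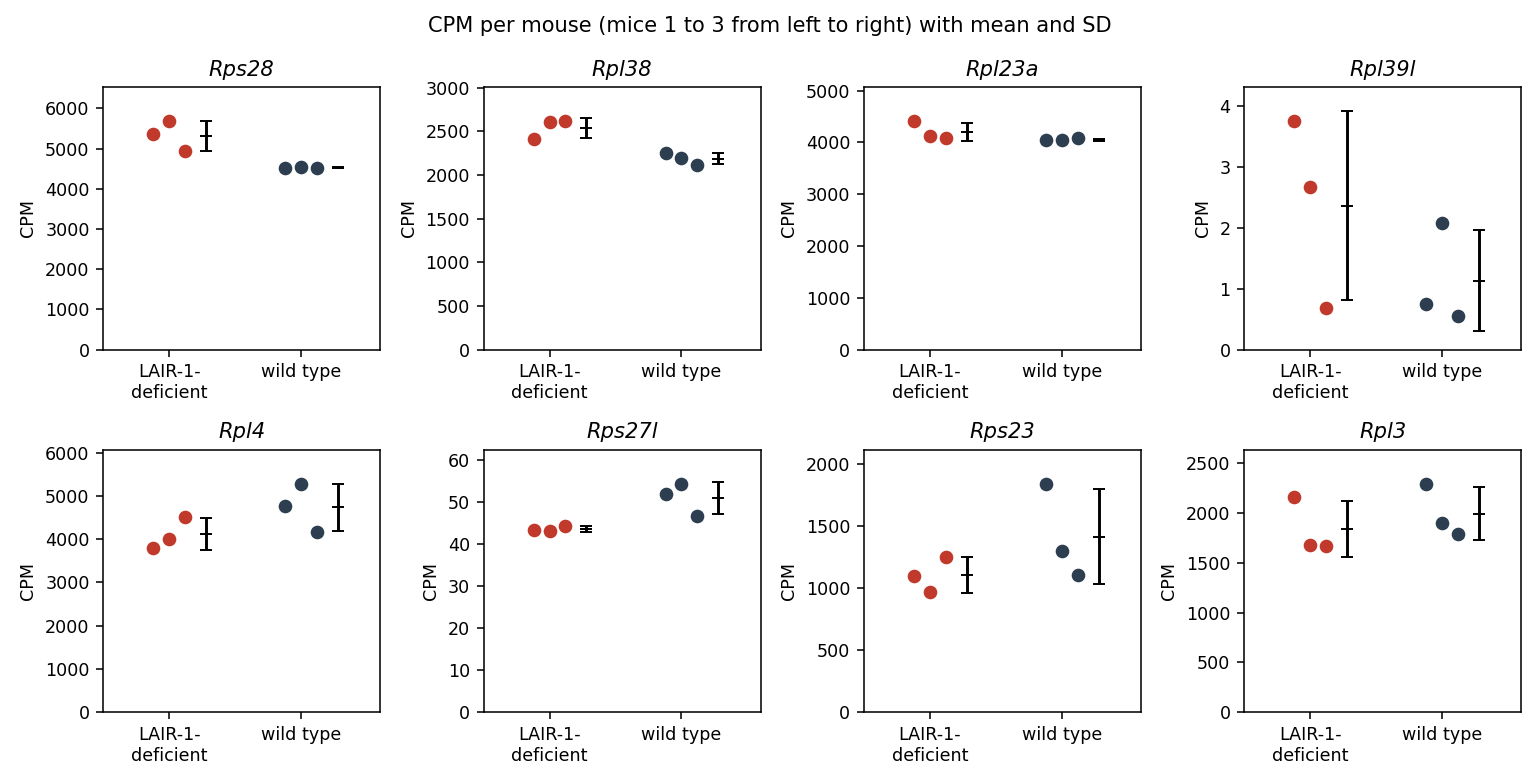
CPM of 8 members in each mouse, with LAIR-1-deficient mice 1 to 3 (red) left of wild type mice 1 to 3 (dark) and the mean with SD as a bar beside each group. Rps28, Rpl38 and Rpl23a do not overlap between groups, Rps27l lies lower in all LAIR-1-deficient mice, and Rpl39l, Rpl4, Rps23 and Rpl3 overlap.

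The groups were free of overlap for 4 members higher and 1 lower in LAIR-1-deficient mice, against 4.30% and 4.09% of all genes. Those higher included Rps28, Rpl38 and Rpl23a, and the 1 lower was Rps27l. Rpl23a, a protein at the exit of the tunnel, had 4404, 4119 and 4085 CPM in LAIR-1-deficient mice 1 to 3, against 4039.8, 4045 and 4077 CPM in wild type mice 1 to 3. The gap between the groups was small beside the range within the LAIR-1-deficient mice, with a log2 fold change of 0.05.

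The other members named by the smallest p, none of which passed, had differences within the spread of mice. Higher in mean were Rpl36a, Rpl39 and Rpl31, with log2 fold changes of 0.13, 0.14 and 0.14, and Rps19bp1, outside the ribosome, with 0.27. Each of these values depended on single libraries. Without LAIR-1-deficient mouse 1 they were 0.02 for Rpl36a, 0.05 for Rpl39 and 0.15 for Rps19bp1, and without wild type mouse 3 they were 0.03 for Rpl39 and 0.12 for Rps19bp1. For Rpl31, with 158, 116 and 118 CPM in LAIR-1-deficient mice 1 to 3 against 106, 121 and 128 CPM in wild type mice 1 to 3, the value turned to -0.02 without LAIR-1-deficient mouse 1. Lower in mean were Rpl3, Rps27a, Rpl6 and Rps13, with log2 fold changes of -0.12, -0.07, -0.09 and -0.06. Rpl3 is a large subunit protein that reaches near the peptidyl transferase centre, and Rps27a is made as a fusion with ubiquitin. For Rpl3 the value was -0.26 without LAIR-1-deficient mouse 1 but -0.0065 once wild type mouse 1 was left out, and that of Rps27a was -0.04 without LAIR-1-deficient mouse 2. Rpl6 turned to 0.01 and Rps13 to 0.02 without wild type mouse 1.

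Further members were named for roles known beyond their place in the ribosome. Rpl5 and Rpl11, which with 5S RNA can bind the p53 regulator MDM2, had log2 fold changes of 0.007 and -0.001. Rpl5 averaged 7702 ± 520 CPM in LAIR-1-deficient and 7664 ± 480.1 CPM in wild type cells, and Rpl11 2098 ± 158 CPM in LAIR-1-deficient and 2099.5 ± 59.7 CPM in wild type cells (SD, n = 3 each). Rpl23, a further protein that binds MDM2, was at 0.04. Rps6, the substrate of the S6 kinases, averaged 10116 ± 915 CPM in LAIR-1-deficient and 9714 ± 489 CPM in wild type cells, and its log2 fold change was 0.06 (95% interval -0.12 to 0.23). Rps19, mutated in human Diamond-Blackfan anaemia, was at -0.002, Rps3 at 0.02, Rpl10, one of the last proteins to join the large subunit, at -0.05, and Rpl13a at 0.05. These 8 genes had a 95% interval inside 1.25-fold both ways, which Rpl38, Rps27 and Rps27l, given elsewhere, did not.

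Paralogues were given beside their parent genes, since some of them replace the parent in certain tissues. Rpl22 is needed for the development of alpha beta T cells in mice, and Rpl22l1 is its closest relative, with 67.5% identical coding bases. Rpl22 averaged 906 ± 61.0 CPM in LAIR-1-deficient and 913 ± 51.3 CPM in wild type cells (SD, n = 3 each), with a log2 fold change of -0.01. Rpl22l1 had 2, 2 and 6 counts in LAIR-1-deficient mice 1 to 3, against 2, 1 and 4 counts in wild type mice 1 to 3. Per 1000 counts of Rpl22 this was 0.296, 0.415 and 0.925 in LAIR-1-deficient mice, against 0.279, 0.113 and 0.519 in wild type mice. The groups overlapped, the difference of the log2 ratio was 0.93, and the two-sided exact permutation p was 0.4. A difference in this ratio was not detectable at so few counts. Gm15421, a transcribed processed pseudogene, shares 80.6% of the coding stretches of Rpl22l1. It had 1, 1 and 0 counts in LAIR-1-deficient mice 1 to 3, against 2, 2 and 4 in wild type mice 1 to 3. The part of read assignment in the few counts of Rpl22l1 was not tested. Over the 3 exact tests on shares and ratios each adjusted p was 1.

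Rps27l, a p53 target gene with 76.1% identity to Rps27, was the paralogue with the smallest p. It had 43.4, 43.0 and 44.3 CPM in LAIR-1-deficient mice 1 to 3, against 51.8, 54.3 and 46.8 CPM in wild type mice 1 to 3. All LAIR-1-deficient mice lay below all wild type mice, with a log2 fold change of -0.23 (SE 0.12), an unadjusted p of 0.071 and an adjusted p of 0.9999 in edgeR. Rps27 itself had 5.62, 2.49 and 4.37 CPM in LAIR-1-deficient mice against 6.81, 5.80 and 4.71 CPM in wild type mice, with overlap and a log2 fold change of -0.45 (SE 0.31), which was -0.21 without LAIR-1-deficient mouse 2 and -0.72 without LAIR-1-deficient mouse 1. Per kilobase of coding sequence the paralogue exceeded its parent, with means over the 6 libraries of 185 CPM per kilobase for Rps27l and 19.5 for Rps27. The lowest library of Rps27l, at 169 CPM per kilobase, lay above the highest of Rps27, at 26.7. All coding stretches of Rps27 occur in other genes, against 49.0% of those of Rps27l.

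Rpl39l, known from male germ cells of the mouse, had the largest fold change of all members and few counts. It had 26, 15 and 5 counts in LAIR-1-deficient mice 1 to 3, against 6, 19 and 5 counts in wild type mice 1 to 3. The groups overlapped at a log2 fold change of 1.02 (95% interval -0.28 to 2.33). This value was 0.48 without LAIR-1-deficient mouse 1, 1.81 without wild type mouse 2 and 0.27 without mouse 1 of both groups. Its parent Rpl39 averaged 4833 ± 545 CPM in LAIR-1-deficient and 4385 ± 678 CPM in wild type cells (SD, n = 3 each). The coding sequences of the pair are shown because reads of one could be taken for the other only where they are equal; both have 156 bases and differ at 23, in capitals. No stretch of 50 bases of Rpl39l occurs in another gene. Rpl39 lies at chrX:37082520-37085402 on the minus strand and Rpl39l at chr16:10170226-10174911 on the plus strand in GRCm38, and the sequences are from GENCODE vM21.
Rpl39: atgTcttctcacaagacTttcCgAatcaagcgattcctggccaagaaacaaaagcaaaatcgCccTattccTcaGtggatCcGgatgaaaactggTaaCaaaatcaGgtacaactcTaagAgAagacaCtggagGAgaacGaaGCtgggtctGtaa
Rpl39l: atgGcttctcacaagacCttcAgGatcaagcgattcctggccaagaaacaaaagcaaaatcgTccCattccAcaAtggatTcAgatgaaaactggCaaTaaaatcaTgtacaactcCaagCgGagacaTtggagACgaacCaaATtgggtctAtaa

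The remaining paralogues were low or equal. Rpl36al, whose coding sequence is 87.9% identical to that of Rpl36a, averaged 404 ± 21.9 CPM in LAIR-1-deficient and 419.7 ± 28.6 CPM in wild type cells, a log2 fold change of -0.05. Rpl36a averaged 895 ± 121 CPM in LAIR-1-deficient and 816 ± 47.4 CPM in wild type cells (SD, n = 3 each). Rpl7l1 averaged 37.0 ± 1.74 CPM in LAIR-1-deficient and 39.0 ± 2.77 CPM in wild type cells, and Rpl7 2654 ± 174 CPM in LAIR-1-deficient and 2584 ± 126 CPM in wild type cells. Rpl10l, which stands in for Rpl10 in the testis, had 1, 0 and 0 counts in LAIR-1-deficient mice 1 to 3 and 1, 0 and 0 in wild type mice 1 to 3. Rps4y2 had 9, 1 and 0 counts in LAIR-1-deficient mice and 7, 14 and 7 in wild type mice, and its groups overlapped.

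Genes around the ribosomal proteins were without a call as well. Of the ribosomal proteins outside the symbol rule, Fau had a log2 fold change of 0.04 and Rack1 (Gnb2l1 in the table) of -0.01. Of 57 tested genes of ribosome biogenesis, 0 passed in either direction, with 30 positive and 27 negative fold changes and a median of 0.005. Those with the smallest p were Nvl, an ATPase of large subunit assembly, with a log2 fold change of 0.35, and Utp20, a factor of small subunit processing, with a log2 fold change of -0.28. Of 22 tested translation factors and other mRNAs with a pyrimidine tract, 0 passed, with 14 positive and 8 negative and a median of 0.02. Among them Eif3l, a subunit of an initiation factor, averaged 191 ± 9.60 CPM in LAIR-1-deficient and 166 ± 4.91 CPM in wild type cells (SD, n = 3 each), and Pabpc1, the poly(A) binding protein, 1583 ± 59.8 CPM in LAIR-1-deficient and 1773 ± 78.8 CPM in wild type cells. Of 23 tested regulators in the mTOR pathway and of pyrimidine tract mRNAs, 0 passed, with 11 positive and 12 negative and a median of -0.01. Larp1, which binds the pyrimidine tract, averaged 312 ± 23.8 CPM in LAIR-1-deficient and 275 ± 10.9 CPM in wild type cells. Mxd4, a partner of MAX that opposes MYC, averaged 8.73 ± 1.47 CPM in LAIR-1-deficient and 7.32 ± 0.682 CPM in wild type cells.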

How the data were processed

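RNA of 6 libraries, 3 LAIR-1-deficient and 3 wild type, was analysed from the deposited raw counts per gene, whose columns are named by library per the file headers. The submitters' processing notes name BWA and mm10. The sources used here do not state annotation, counting tool, strand setting or molecular identifiers, so overlapping or near-identical genes cannot be told apart and counting errors assume independent reads. The members and gene lists were chosen with earlier results of these data known. A set of 4 spike-in rows with at most 4 counts per library was left out. Symbols were matched to GENCODE vM21, with 13564 rows by symbol, 749 by an older symbol and 202 unmatched; all 85 members matched.

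All genes were fitted with edgeR 4.0.16 in R 4.3.3, with filterByExpr at a smallest count of 10, TMM scaling, a robust quasi-likelihood fit without covariates and Benjamini-Hochberg adjustment over 9565 genes at 0.05. The common biological coefficient of variation was 0.135. Library totals ran from 5519748 to 9187017. DESeq2 1.42.0 and limma 3.58.1 were alternatives. Scripts were tested on simulated data. Shares and ratios were compared by exact permutation over 6 libraries.

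Named members are the 8 with the smallest p per direction, the 6 highest and lowest in CPM, paralogue pairs and genes of known special role. Related lists name the 2 genes with the smallest p each. Some genes that this rule names are not reported here or drawn. Other members were chosen after their values were seen. Mouse numbers were not taken to pair samples, as same-numbered libraries correlated at 0.29, 0.01 and 0.07 over genes. Other pairs ran from -0.22 to 0.18, so the mouse 1 libraries had the highest value. A fit with mouse number as a replicate block is given below.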

Additional observations from a re-analysis of the deposited data

How the results depend on the processing

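No member was called in any of the 16 alternatives, and the smallest adjusted p of a member was 0.359 for Rps23 without the low-count filter. The median log2 fold change of members ran from -0.05 without LAIR-1-deficient mouse 1 to 0.06 without LAIR-1-deficient mouse 2, each within 1 SD of the 3 LAIR-1-deficient library medians (0.114) of the value with all libraries. With libraries left out in turn, the difference in share of counts ran from -0.165 to 1.19 percentage points and that of the log2 ratio of large to small subunit counts from -0.0058 to 0.0061; without mouse 1 of both groups, chosen after seeing the data, this log2 ratio difference was -0.0018. Among the 16 members with the smallest p, 250 of 255 values kept their direction and 13 members had no reversal. These members were chosen by p from the same libraries, which favours a kept direction, so these counts do not measure robustness. With single libraries left out, the log2 fold change of Rpl31 ran from -0.0216 to 0.218, that of Rpl6 from -0.185 to 0.0122 and that of Rps13 from -0.139 to 0.0211. Leaving out mouse 1 of both groups gave -0.0937 for Rpl31. With mouse number as a replicate block, 0 members were called and the member median was 0.0155, the share difference stayed at 0.600 points, and 448 genes reached an unadjusted p under 0.05 against 311 without the block. Not every library correlated best with its own number. The causes of these changes were not tested. Few counts limit what can be said of the 4 untested members and the 7 core genes under 10 CPM, with Rpl26 in both sets. The parts of depth and read assignment in these low counts were not tested.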
